A study of Mus musculus with 24 samples.

Results

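The interferon γ (IFNγ) receptor and cytokine signaling inhibitors were followed through reprogramming of mouse neural precursor cells (NPCs) into induced pluripotent stem cells (iPSCs). The 9 genes were taken by name from the 37315 genes of the deposited table of normalized read counts: the receptor subunits Ifngr1 and Ifngr2, the suppressor of cytokine signaling (SOCS) family members Socs1, Socs3, Socs2 and Cish, the phosphatases Ptpn2 and Ptpn6, and the ubiquitin-like modifier protease Usp18. All 9 were present in the table, each as 1 row.

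IFNγ binds a receptor made of an IFNGR1 chain, which binds the ligand, and an IFNGR2 chain. The kinases JAK1 and JAK2 sit on these chains, and the signal they start reaches gamma-activated sites (GAS) in DNA. The signal is limited by proteins that its own targets encode, among them SOCS1 and SOCS3, which block JAK kinases. The other inhibitors are not all products of IFNγ targets. CISH and SOCS2 act mainly on receptors that use STAT5. PTPN2 removes phosphate from JAK1, and PTPN6 (SHP-1) removes it from receptors and kinases. USP18 cleaves ISG15 from proteins and shuts down the type I interferon receptor. In pluripotent mouse cells the same machinery serves leukemia inhibitory factor (LIF), which signals through STAT3 and has Socs3 among its targets.

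The cells came from 1 female embryonic stem cell (ESC) line, a hybrid of 129S1/SvImJ and CAST/EiJ, that carries a GFP reporter on the X chromosome (X-GFP), a truncated Tsix allele, a Nanog promoter reporter, and the reprogramming factors c-Myc, Klf4, Oct4 and Sox2 under doxycycline control; ESCs and NPCs of the study shared this genotype. NPCs were reprogrammed with doxycycline on irradiated male embryonic fibroblast feeders, in medium with LIF, without IFNγ (control) or with 10 ng/ml of it from day 0 to day 5. Cells without the dye that marked the feeders were sorted at day 2, SSEA1-positive cells at days 5 and 7, and the day 7 cells were split by X-GFP into negative, medium and high. With NPCs and ESCs this gave 12 populations, each with 2 RNA-seq libraries, 24 in all; at day 7 the IFNγ had been withdrawn.

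The libraries held 24746109 to 37056508 reads on genes. The labelled cell types agreed in direction with their marker genes: a list of 7 pluripotency genes summed to 786 to 1186 normalized counts in NPCs and to 117920 to 126517 in ESCs, and a list of 8 neural precursor genes to 44696 to 47883 and 806 to 878. The line is female, yet 4 Y-linked genes summed to 125 to 253 normalized counts in all 4 day 2 libraries and to at most 12.5 in the other 20. These genes are carried by the male feeders. With 2 libraries against 2, an exact permutation test cannot reach p below 0.05, and the limma p-values given here measure the spread between libraries that the labels call replicates without saying how they were made.

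Near their starts, Socs1, Socs3 and Cish carry letters that match the elements which interferon-activated factors bind. The stretches of these 3 genes are shown because they hold the matches. The RefSeq promoter table (GRCm38.p6) held windows of 300 bases for 6 of the 9 genes, Ifngr1, Ifngr2, Socs1, Socs3, Cish and Ptpn6. Both strands were searched for GAS, written TTCNNNGAA, which 8.30% of all 32851 windows hold, and for the core of the interferon-stimulated response element (ISRE), written GAAANNGAAA, which 3.44% hold. Socs1 held 2 ISRE cores that overlap each other, at positions -83 to -74 and -77 to -68 from the start. Socs3 held 1 GAS, at -154 to -146, and Cish held 2, at 1 to 9 and 12 to 20. The windows of Ifngr1, Ifngr2 and Ptpn6 held neither set of letters, although these genes too were called with IFNγ at day 7. Cish was called only at day 7, where it was lower with IFNγ. During IFNγ exposure, of the genes with windows, only Socs1 and Socs3 were called in the main limma fit, and both hold matches. Cish, which also holds matches, was not called then, nor were Ifngr1, Ifngr2 and Ptpn6, which hold none. At day 7, after withdrawal, many genes of the whole table were called, so calls there are not a result about matches. Each stretch is given 5′ to 3′ along the gene's strand with the matching letters in capitals, first the 250 bases before the Socs1 start (chr16:10785537-10785786, minus strand), then 30 bases of Socs3 (chr11:117969501-117969530, minus strand) and of Cish (chr9:107296654-107296683, plus strand).
Socs1: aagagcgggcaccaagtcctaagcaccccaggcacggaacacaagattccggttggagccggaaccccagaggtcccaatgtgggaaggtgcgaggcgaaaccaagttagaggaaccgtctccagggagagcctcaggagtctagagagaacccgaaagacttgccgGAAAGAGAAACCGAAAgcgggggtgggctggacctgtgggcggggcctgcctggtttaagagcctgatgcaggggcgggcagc
Socs3: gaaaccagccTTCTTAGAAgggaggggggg
Cish: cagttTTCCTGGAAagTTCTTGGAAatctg
A match of letters is a description of the sequence, and binding was not measured here.

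Whether IFNγ changed these genes was asked at day 2, at day 5 and in the 3 day 7 populations, by limma on log2(normalized count + 1) with p-values adjusted over all genes tested and a threshold of 0.1. At day 2, Socs1 and Socs3 rose and Usp18 fell: 2 of 9 members were higher, where 5.03% of all tested genes were, and 1 was lower, where 3.45% were. At day 5, Socs1 and Socs3 rose again, 2 of 9 against 1.65% of all genes. No member fell by limma, edgeR or DESeq2 at day 5, where 0.535% of all genes did by limma, and 1 did at an unadjusted limma p under 0.05. Among the X-GFP negative cells of day 7, Socs1, Socs2, Ptpn6 and Usp18 rose and Ifngr1 and Cish fell, with 31.1% of all genes higher and 30.8% lower (with values rescaled to the same total, 66.2% of all calls there were higher, against 50.3%). In the X-GFP medium cells 6 members rose, namely Ifngr2, Socs1, Socs2, Socs3, Ptpn2 and Ptpn6, and Ifngr1 and Cish fell, with 33.3% and 29.6% of all genes called. By DESeq2 4 members rose there, without Socs1 and Ptpn2. In the X-GFP high cells Socs2 rose and Ifngr1 and Cish fell, 1 and 2 of the 8 members tested, with 18.1% and 20.4% of all genes called. At day 7 so many genes differed that the number of members called is not a result about these genes.

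**Figure D1:**
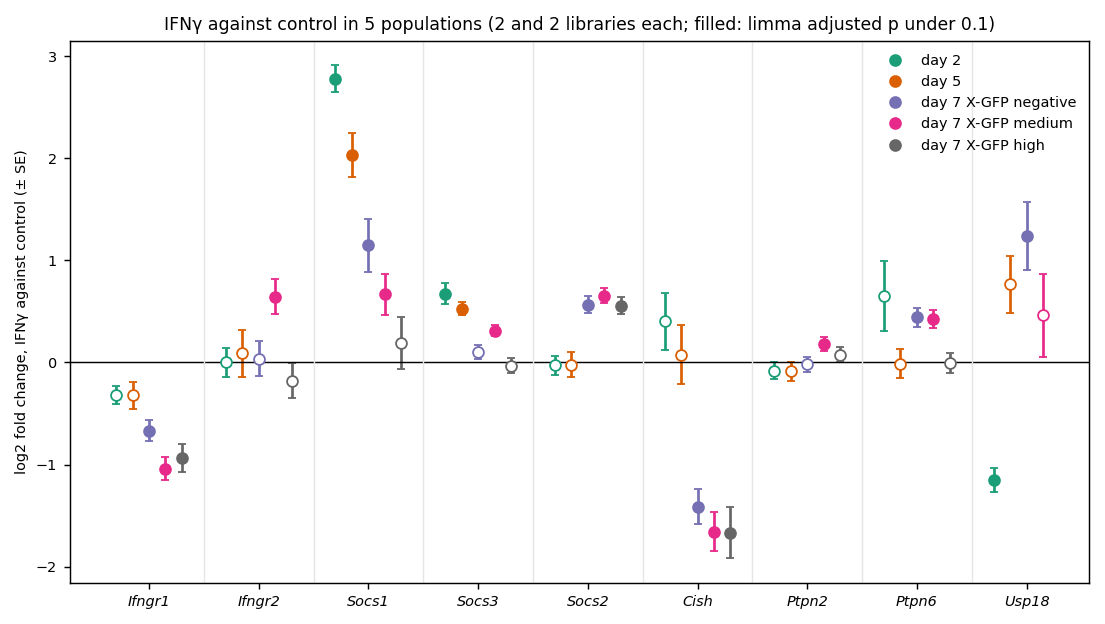
Log2 fold change of IFNγ against control (± standard error, 2 and 2 libraries) for each gene in 5 populations, with filled points for limma adjusted p under 0.1. The Socs1 difference runs from 2.78 at day 2 to 0.19 in X-GFP high cells, Ifngr1 lies below 0 in all 5 populations, and Usp18 lies at -1.15 at day 2 and above 0 in the 3 later populations where it was tested.

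Ifngr1, the ligand-binding chain, was lower with IFNγ in every population, most clearly at day 7. The control libraries held 752 and 689.8 normalized counts at day 2 and the IFNγ libraries 571 and 583. At day 5 the values were 435 and 389.9 against 341 and 318. These differences of -0.32 ± 0.09 (SE) and -0.32 ± 0.13 on the log2 scale did not pass the threshold (limma adjusted p = 0.102 and 0.257), although the libraries did not overlap. The day 2 difference passed with values rescaled to the same total (limma adjusted p = 0.0919). Both passed with all 24 libraries in 1 fit (0.0829 and 0.0566) and with the replicate number as a block (0.00086 and 0.0926). In X-GFP negative cells Ifngr1 stood at 696 and 698 in controls and 404 and 476 with IFNγ, in X-GFP medium cells at 538 and 529 against 243 and 276, and in X-GFP high cells at 306 and 291 against 159.9 and 151. The 3 day 7 differences were -0.67 ± 0.11, -1.04 ± 0.11 and -0.94 ± 0.14 (limma adjusted p = 0.000656, 3.25e-05 and 0.000418), all after IFNγ had been withdrawn. In these bulk libraries, fewer cells that hold a transcript and less of it in each cell cannot be told apart.

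Over the 12 populations Ifngr1 ran from 721 ± 44 (SD, n = 2) in day 2 controls to 87.0 ± 0.8 in ESCs. It stood at 552 ± 39 in NPCs. Day 2 controls and X-GFP negative controls, at the top of the order, overlapped, as did the day 2 IFNγ cells, NPCs and X-GFP medium controls below them. From the day 5 IFNγ cells downward, no neighbour in the order overlapped: day 5 IFNγ, X-GFP high control, X-GFP medium IFNγ, X-GFP high IFNγ and ESCs. In each day 7 gate the pluripotency list was higher in the arm with less Ifngr1, and in each arm it was higher from one gate to the next as Ifngr1 was lower, with sums of 20356 to 23226 in X-GFP negative control, 32124 to 34294 in X-GFP negative IFNγ, 44512 to 45894 and 72560 to 74758 in X-GFP medium, and 85102 to 89262 and 102566 to 105288 in X-GFP high cells. Its part in the Ifngr1 difference was not tested.

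Ifngr2, the chain that brings JAK2 to the receptor, rose with IFNγ in the X-GFP medium cells, from 111 and 94.996 to 175 and 148 normalized counts (0.65 ± 0.17, limma adjusted p = 0.0088). It overlapped between the arms at day 2 (251 and 210.4 against 236 and 225), at day 5 (72.4 and 73.7 against 88.0 and 68.8) and in X-GFP negative cells (187 and 149 against 191 and 153). The X-GFP high libraries held 146 and 137 in controls and 133 and 118 with IFNγ, without passing the threshold (limma adjusted p = 0.468). The subunits thus went in opposite directions in the X-GFP medium cells. Across populations Ifngr2 was highest in NPCs, at 412 ± 75, and lowest in ESCs, at 35.4 ± 5.6, with a second low at day 5, where controls held 73.0 ± 0.9.

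Socs1, the JAK inhibitor, gave the largest IFNγ response of the 9 genes at days 2 and 5. At day 2 it went from 89.6 and 79.4 normalized counts in controls to 583 and 586, a 6.92-fold ratio of means (log2 change 2.78 ± 0.13, limma adjusted p = 8.01e-05), which placed it at rank 104 of 15697 tested genes by fold change. At day 5 it went from 35.3 and 32.0 to 145 and 137, 4.18-fold (2.03 ± 0.22, limma adjusted p = 0.00929). The IFNγ libraries stood far above the controls at both times, while the level itself was lower at day 5 in both arms. After withdrawal the values were 86.7 and 52.6 against 179 and 127 in X-GFP negative cells (1.15 ± 0.26, limma adjusted p = 0.00496), and 61.3 and 52.7 against 96.3 and 85.7 in X-GFP medium cells (0.67 ± 0.20, limma adjusted p = 0.0179). The latter was not called without the second X-GFP medium control library (0.56, limma adjusted p = 0.146) or by DESeq2 (0.64, adjusted p = 0.125). The arms overlapped among X-GFP high cells, 78.4 and 68.3 against 109 and 64.7. Leaving out the second IFNγ library there gave 0.56 (limma adjusted p = 0.069), and leaving out the first gave -0.17 (limma adjusted p = 0.647).

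The Socs1 effects of successive populations were compared as differences of effects, none of which passed the threshold. From day 2 to day 5 the difference was -0.74 ± 0.23 (limma adjusted p = 0.343), from day 5 to X-GFP negative cells -0.89 ± 0.37 (0.101), and from X-GFP negative to X-GFP high cells -0.95 ± 0.41 (0.147). The second passed with a pseudocount of 0.1, with all 24 libraries in 1 fit and by edgeR (adjusted p = 0.0991, 0.0697 and 0.0978), and without the second X-GFP negative control (-1.24, limma adjusted p = 0.0364) or the first X-GFP negative IFNγ library (-1.14, 0.0800). The third passed with values rescaled to the same total (-1.12, limma adjusted p = 0.0679), with all 24 libraries (0.0979), and without the first X-GFP negative control (-1.31, 0.0878) or the first X-GFP high IFNγ library (-1.32, 0.0529). Without IFNγ, Socs1 levels were low throughout, from 33.7 ± 2.4 at day 5 to 84.5 ± 7.2 at day 2, so the day 2 IFNγ cells, at 585 ± 2, stood apart from every other population.

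Socs3, the inhibitor that LIF and STAT3 signaling induces, rose with IFNγ from a much higher control level. It went from 2996 and 2524 normalized counts to 4697 and 4094 at day 2 (0.67 ± 0.10, limma adjusted p = 0.0167), and from 2973 and 2929.8 to 4259.9 and 4255 at day 5 (0.53 ± 0.07, limma adjusted p = 0.0208). Among X-GFP medium cells it rose from 5329 and 5164 to 6601 and 6432 (0.31 ± 0.06, limma adjusted p = 0.00102). The X-GFP negative libraries were at 5524 and 5578 against 6275 and 5661, a difference that was not called (0.10 ± 0.07, limma adjusted p = 0.216). It was called with values rescaled to the same total (0.26, limma adjusted p = 0.00789) and without the second X-GFP negative IFNγ library (0.18, 0.0810). The arms overlapped among X-GFP high cells, at 4878 and 5019 against 5108 and 4579. The IFNγ effect on Socs3 was smaller in X-GFP negative cells than at day 5, by a difference of effects of -0.43 ± 0.09 (limma adjusted p = 0.00818).

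Per kilobase of exon, Socs3 reached the highest level of the 9 genes, from 238 normalized counts per kilobase in NPCs to 2254 in X-GFP medium IFNγ cells. Socs1 ranged from 11.6 to 201 and Socs2 from 31.1 to 245 on this scale. Cish did not pass 38.0, so the inhibitors differed in level by more than an order of magnitude. Ptpn2 ranged from 303 to 734, the narrowest relative range of the set, with a highest mean 2.42 times the lowest. Ordered by level, each gene has 11 pairs of neighbouring populations, of which 4 overlapped for Ifngr1, Ifngr2, Socs3 and Usp18, 5 for Socs2, Ptpn2 and Ptpn6, 6 for Cish and 7 for Socs1, so neighbours in these orders often did not differ beyond their spread.

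Socs2, the SOCS protein best known for limiting growth hormone signaling, overlapped between the arms during IFNγ exposure and was higher in the IFNγ arm after withdrawal. At day 2 the values were 1216 and 1128 in controls against 1241 and 1065, and at day 5 they were 1971 and 2511 against 2129.9 and 2254, overlapping both times. At day 7 the arms separated, 1423 and 1379 against 1919 and 2243 in X-GFP negative cells, 1109 and 1134 against 1686 and 1845 in X-GFP medium cells, and 1013 and 1075 against 1467 and 1602 in X-GFP high cells. The differences were 0.57 ± 0.09, 0.65 ± 0.07 and 0.55 ± 0.08 (limma adjusted p = 0.000522, 4.73e-05 and 0.000447). The change of effect from day 5 to X-GFP negative cells was 0.59 ± 0.16 (limma adjusted p = 0.0245). Between X-GFP high and negative cells the effects differed by -0.01 ± 0.12 (limma adjusted p = 0.96), with each measured against its own controls.

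Cish, the founding member of the SOCS family and a target of STAT5, moved the other way. It was at 61.1 and 38.7 in controls against 68.2 and 61.3 at day 2 and at 89.2 and 55.9 against 81.9 and 68.0 at day 5, and was not called at either time. In X-GFP negative cells it stood at 275 and 212 in controls and at 84.8 and 96.0 with IFNγ, in X-GFP medium cells at 133 and 155 against 44.8 and 44.96, and in X-GFP high cells at 88.7 and 89.7 against 23.99 and 31.2. It fell by 1.41 ± 0.17, 1.66 ± 0.19 and 1.67 ± 0.25 on the log2 scale, 2.70-fold, 3.21-fold and 3.23-fold lower means (limma adjusted p = 0.000138, 5.95e-05 and 0.000436). The effect in X-GFP negative cells was lower than that at day 5 by 1.49 ± 0.35 (limma adjusted p = 0.0122). The X-GFP high IFNγ cells, at 27.6 ± 5.1, overlapped the ESCs, at 26.6 ± 2.8. Cish and Socs2 thus shared the time of their difference and had opposite signs in each day 7 population.

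Lists of fibroblast, leukocyte and neural precursor markers also differed between the arms in each of the 3 day 7 populations. A list of 10 fibroblast genes summed to 4483 to 5103 normalized counts in X-GFP negative controls and to 1054 to 1085 with IFNγ, to 5077 to 5652 and 733 to 780.0 in X-GFP medium cells, and, among X-GFP high cells, to 2191 to 2673 and 674 to 736. A list of 8 leukocyte genes summed to 2498 to 2978 and 1081 to 1207, to 1888 to 2198 and 1019 to 1244, and to 1168 to 1312 and 567 to 739 in the same order, most of it Cd68, a lysosomal protein gene. Both lists were thus lower with IFNγ in all 3 populations, as Ifngr1 and Cish were. The neural precursor list was higher with IFNγ in X-GFP negative cells, at 5759 to 5916 against 5126 to 5207, and lower in X-GFP medium and high cells, at 2150 to 2433 against 3326 to 3601 and at 1421 to 1509 against 2105 to 2138. The Y-linked genes summed to at most 12.5 in any day 7 library. In NPCs they summed to at most 1.94, while the fibroblast list summed to 31070 to 44644, above every day 7 library. The fibroblast list therefore does not mark feeder cells alone here. The part of these lists in the Cish and Ifngr1 differences was not tested.

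**Figure D2:**
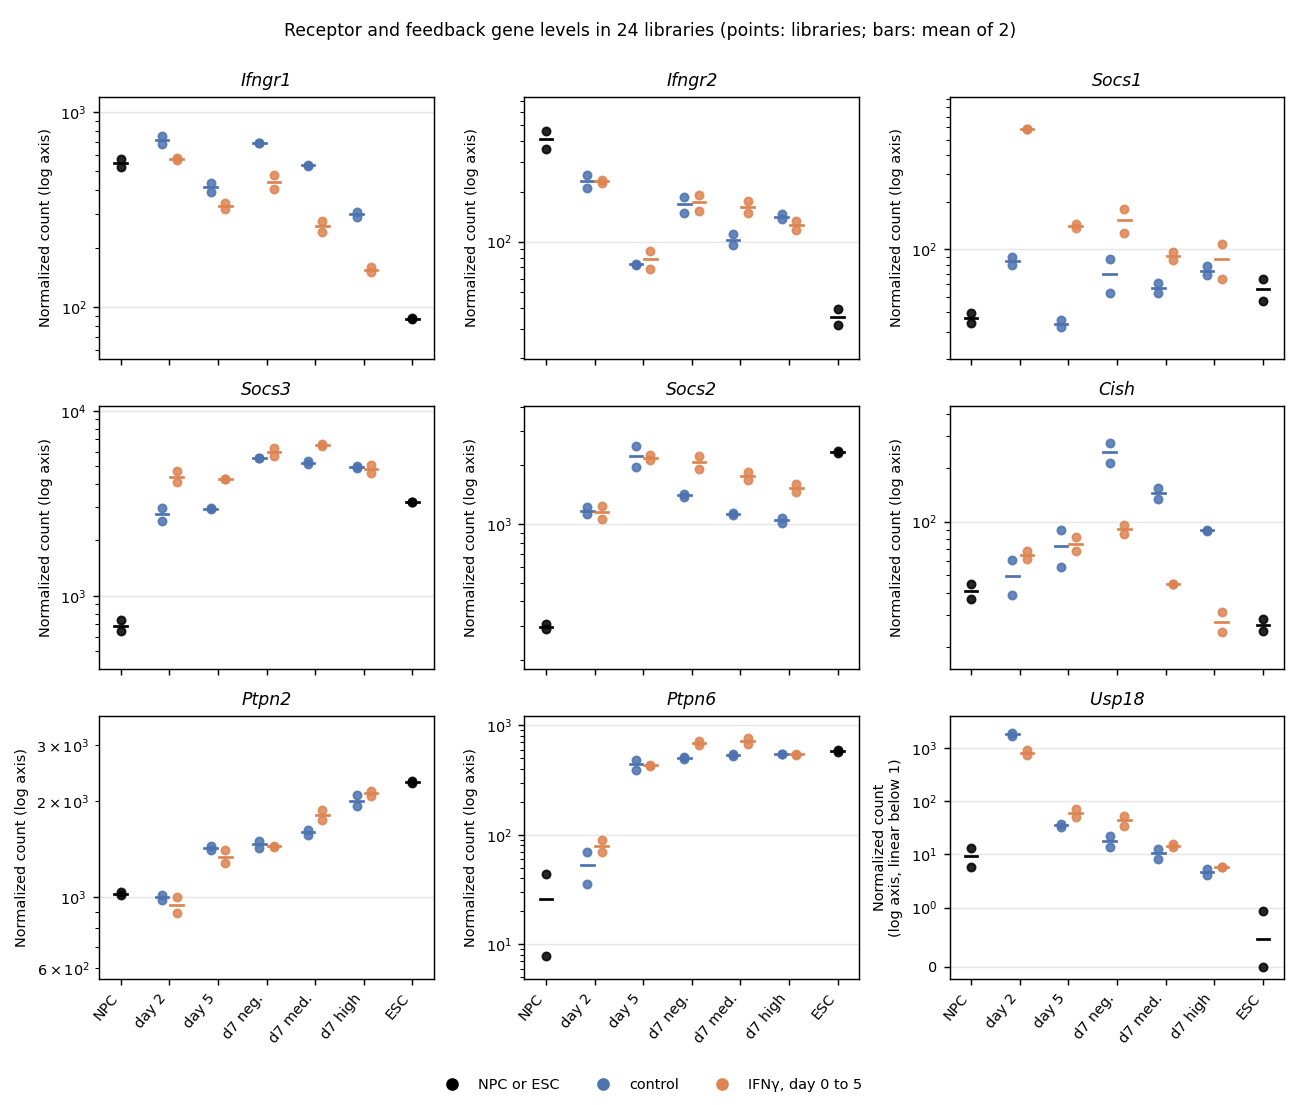
Normalized counts (log axis; for Usp18 linear below 1) of the 9 genes in every library, with points for libraries, bars for the mean of 2, black for NPC and ESC, blue for control and orange for IFNγ. Socs1 at day 2 (583 and 586 with IFNγ against 89.6 and 79.4) and Cish at day 7 (for example 44.8 and 44.96 against 133 and 155 in X-GFP medium cells) show the arms apart in opposite directions, and Usp18 peaks at day 2.

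Ptpn2, a phosphatase of JAK1, was called with IFNγ only among the X-GFP medium cells, from 1567 and 1627 normalized counts to 1742 and 1877 (0.18 ± 0.07, limma adjusted p = 0.049), and there the call was lost without the first control (0.15, limma adjusted p = 0.275), the second control (0.21, limma adjusted p = 0.134) or the second IFNγ library (0.13, limma adjusted p = 0.142), and by DESeq2 (0.14, adjusted p = 0.256). Its level increased along reprogramming, from 1027 ± 19 in NPCs and 999 ± 24 in day 2 controls through 1423 ± 26 at day 5 to 2005 ± 109 in X-GFP high controls and 2294 ± 18 in ESCs.

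Ptpn6 (SHP-1), known mainly from blood cells, was nearly off in NPCs, at 7.8 and 43.9 normalized counts, and stood at 600.4 and 571 in ESCs. With IFNγ it rose in X-GFP negative cells, from 494 and 518 to 654 and 723 (0.44 ± 0.10, limma adjusted p = 0.00379), and in X-GFP medium cells, from 526 and 543 to 679.6 and 759 (0.43 ± 0.09, limma adjusted p = 0.00296). The X-GFP high libraries held 542 and 547 against 540.4 and 545. The IFNγ effect in X-GFP high cells was lower than in X-GFP negative cells by a difference of effects of -0.45 ± 0.13 (limma adjusted p = 0.0351), and that in X-GFP negative cells higher than at day 5 by 0.46 ± 0.17 (limma adjusted p = 0.0675). The first difference was not called without the first X-GFP negative control (-0.41, limma adjusted p = 0.114), the second X-GFP negative IFNγ (-0.37, 0.124) or the second X-GFP high control library (-0.44, 0.11). The second difference was lost without the second day 5 control (0.31, limma adjusted p = 0.199), the second day 5 IFNγ (0.44, 0.129), the first or second X-GFP negative control (0.42, 0.189 and 0.49, 0.113) or the second X-GFP negative IFNγ library (0.38, 0.207), and without the filter on low values (0.46, 0.101). With all 24 libraries in 1 fit neither was called (limma adjusted p = 0.695 and 0.614). The day 7 effects themselves were not called when all 24 libraries were fitted together (limma adjusted p = 0.423 and 0.442), a fit in which the spread of the 2 NPC libraries enters. The part of that spread in the lost calls was not tested. The 8 leukocyte genes summed to 113 to 132 normalized counts in NPCs, 649 to 655 in day 5 controls and 276 to 304 in ESCs, most of it Cd68, and Ptprc, the pan-leukocyte gene, was at 0 in NPCs and at 0 and 0.95 in ESCs.

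Usp18 was the only member called lower with IFNγ in some population and higher in another. Day 2 controls held 1709.8 and 1925 normalized counts and the IFNγ libraries 736 and 905, a 2.21-fold lower mean (-1.15 ± 0.11, limma adjusted p = 0.00287). At day 5 the values were 32.8 and 37.3 against 50.9 and 71.2 (0.77 ± 0.28, limma adjusted p = 0.225), and in X-GFP negative cells 21.9 and 13.9 against 52.6 and 34.6 (1.24 ± 0.34, limma adjusted p = 0.012). The effect at day 5 exceeded that at day 2 by 1.92 ± 0.27 (limma adjusted p = 0.0175), the only member called in this test, with 0.676% of all genes called. This call was lost without the second day 2 control (1.83, limma adjusted p = 0.137), without the first day 2 IFNγ library (1.77, limma adjusted p = 0.118), and with all 24 libraries in 1 fit (1.92, limma adjusted p = 0.102). X-GFP medium cells had 12.8 and 8.3 in controls against 15.7 and 13.6, and X-GFP high cells 4.1 and 5.3 against 5.7 and 5.8, under the filter on low values. The ESC libraries held 0 and 1 read, below the floor of 3 reads, so no fold against ESCs is given.

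The control level of Usp18 at day 2, 1817 ± 152 against 9.5 ± 5.2 in NPCs, was 191-fold higher (7.53 ± 0.35, limma adjusted p = 5.13e-05), and it was 51.8-fold lower again at day 5 (-5.66 ± 0.15, limma adjusted p = 2.3e-06). The 4 Y-linked genes summed to 218 to 253 normalized counts in day 2 controls and to 125 to 223 in day 2 IFNγ libraries, and to at most 1.94 in NPCs and 8.70 at day 5, so they too were high at day 2 and low before and after. The 10 fibroblast genes summed to 41727 to 61867 in day 2 controls, to 25572 to 31180 with IFNγ and to 31070 to 44644 in NPCs, which overlapped the day 2 controls, and to 1733 to 2604 in day 5 controls. The part of feeder RNA in the Usp18 values was not tested. Mx2, an antiviral GTPase gene and the gene whose pattern was closest to that of Usp18, stood at 858 ± 63 in day 2 controls and at 426 ± 71 with IFNγ.

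Genes around the receptor, taken from lists, were set beside the 9 genes. Of 25 genes of IFNγ signal transduction and its targets, 24 rose at day 2, where 5.03% of all genes did, with a list median of 4.02 against 0.01 over all genes on the log2 scale. Ciita, the master regulator of MHC class II genes, and Irf8, a transcription factor, were among the largest, at 8.40 ± 0.44 and 6.71 ± 0.12 (limma adjusted p = 0.000125 and 5.5e-07), and Cxcl9, a chemokine, was the largest, at 8.69 ± 0.48 (limma adjusted p = 0.000173). At day 5, 20 of 24 tested rose, where 1.65% of all genes did. At day 7, 17 rose and 3 fell of 23 in X-GFP negative cells, beside 31.1% and 30.8% of all genes. In X-GFP medium cells 13 rose and 6 fell of 23, beside 33.3% and 29.6%. In X-GFP high cells 9 rose and 5 fell of 22, beside 18.1% and 20.4%. The numbers that fell in X-GFP medium and high cells were near these shares. The list median fell from 3.06 at day 5 to 1.19, 0.61 and 0.18. Psmb9, an immunoproteasome subunit, was still 3.98 ± 0.18, 2.94 ± 0.23 and 1.59 ± 0.27 above control at day 7 (limma adjusted p = 1.04e-06, 4.64e-06 and 0.00108). Fold changes of Ciita and Cxcl9 start from controls with a mean of 0.51 normalized counts and depend on the pseudocount.

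Other negative regulators of JAK-STAT signaling were not called during exposure. Of 13 tested, 0 passed the threshold at day 2 and at day 5 by limma, edgeR or DESeq2, with 4 and 2 at an unadjusted limma p under 0.05. After withdrawal, 3 rose and 8 fell in X-GFP negative cells, 2 rose and 8 fell in X-GFP medium cells, and 1 rose and 3 fell in X-GFP high cells, beside 31.1% and 30.8%, 33.3% and 29.6%, and 18.1% and 20.4% of all genes. The count in X-GFP high cells was near these shares. Dusp3, a dual-specificity phosphatase, fell by 0.67 ± 0.09, 0.88 ± 0.09 and 0.54 ± 0.10 on the log2 scale (limma adjusted p = 0.000245, 2.02e-05 and 0.00199). Of 12 listed receptors of related cytokines, 2 rose at day 2 and 1 at day 5, with 5.03% and 1.65% of all genes higher, and Lifr, the LIF receptor, was among them at both times (0.93 ± 0.10 and 1.05 ± 0.21, limma adjusted p = 0.00358 and 0.0932). Lifr also rose at day 7, by 1.42 ± 0.09, 1.26 ± 0.06 and 0.41 ± 0.07 (limma adjusted p = 4.1e-06, 4.24e-07 and 0.000753). Il10rb, a chain shared by interleukin-10 and interferon lambda receptors, fell by 0.78 ± 0.15, 1.74 ± 0.19 and 1.37 ± 0.26 in the same populations (limma adjusted p = 0.00192, 4e-05 and 0.00197). Of the listed receptors tested at day 7, 5 rose and 4 fell of 11 in X-GFP negative cells. In X-GFP medium cells 2 rose and 5 fell of 11, and in X-GFP high cells 1 rose and 3 fell of 10. With so many of all genes called each way, moves in both directions are not a result about these receptors.

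**Figure D3:**
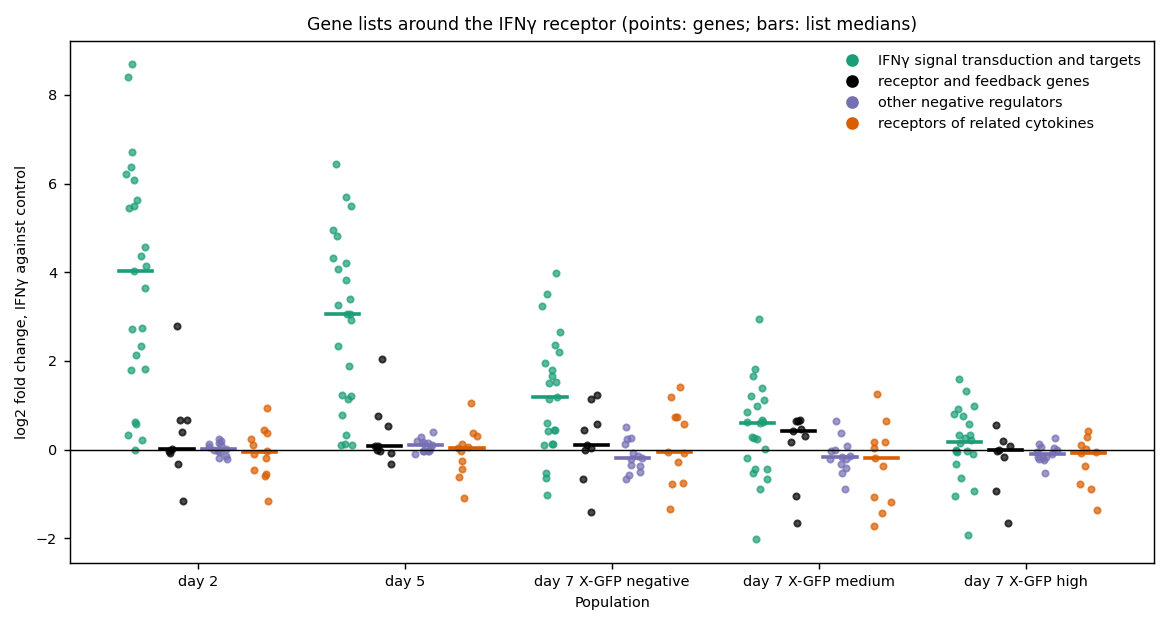
Log2 fold change of IFNγ against control for the genes of 4 lists in 5 populations, with points for genes and bars for list medians. The median of the IFNγ targets falls from 4.02 at day 2 to 0.18 in X-GFP high cells, while the medians of the other lists stay within 0.5 of 0.

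How the 9 genes moved along reprogramming without IFNγ was compared step by step. From NPCs to day 2, 6 of 9 were called, with 69.2% of all genes, and from day 2 to day 5 7 of 9, with 70.6%. From day 5 to X-GFP negative cells 7 of 9 were called, with 63.7%, from X-GFP negative to X-GFP high cells 6 of 9, with 74%, and from X-GFP high cells to ESCs 6 of 8, with 75.8%. Between ESCs and NPCs all 8 tested members were called, with 85.6% of all genes. Socs1 (0.57 ± 0.27, limma adjusted p = 0.099) and Cish (-0.60 ± 0.26, limma adjusted p = 0.0771) were near the threshold there. The Socs1 call was lost without either NPC library (0.47 and 0.68, limma adjusted p = 0.266 and 0.144) or the first ESC library (0.34, 0.345), with a pseudocount of 0.1 (0.115), without the filter (0.113), after rescaling (0.170) and by DESeq2 (0.261). The Cish call was lost without the first or second ESC library (-0.50 and -0.71, limma adjusted p = 0.221 and 0.123) or the second NPC library (-0.47, 0.146), and by DESeq2 (-0.60, adjusted p = 0.347). These shares are near the background. The sorting differed between these steps, by feeder dye at day 2 and by SSEA1 later, and cannot be told apart from time. Culture differed too. Per the study's methods, NPC medium was listed without LIF or serum, while reprogramming cells had both, with doxycycline and feeders. ESCs had LIF and serum on gelatin. The step from NPCs to day 2, for Socs3 as for the others, thus coincides with the addition of LIF and cannot be told apart from it.

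Each gene had its own course. Ifngr1 was 0.39 ± 0.11 higher at day 2 than in NPCs, lower at day 5, higher in X-GFP negative cells, and lower in X-GFP high cells and in ESCs by 1.22 ± 0.09 and 1.77 ± 0.14 for the last 2 steps (limma adjusted p = 0.0229 for the first and 6.65e-07 and 9.37e-08 for the last). Ifngr2 changed by -0.83 ± 0.18 and -1.64 ± 0.19 over the first 2 steps (limma adjusted p = 0.00876 and 0.000258). Without the first day 2 control the first step of Ifngr1 was 0.32 (limma adjusted p = 0.163), and without the second that of Ifngr2 was -0.70 (limma adjusted p = 0.105). Socs2 and Socs3 rose from NPCs to day 2 by 1.98 ± 0.11 and 2.00 ± 0.12, both about 4-fold (limma adjusted p = 6.88e-05 and 8.88e-05), and afterwards parted, Socs2 falling from 2241 ± 382 at day 5 to 1044 ± 44 in X-GFP high cells while Socs3 went from 2952 ± 31 to 4948 ± 100.0. Ptpn6 made its step between day 2 and day 5, from 52.5 ± 23.7 to 439 ± 64, 8.35-fold (3.11 ± 0.31, limma adjusted p = 0.000131).

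Cish was highest in X-GFP negative controls, at 244 ± 45, after 72.6 ± 23.5 at day 5 (1.76 ± 0.25, limma adjusted p = 0.000664), and fell through X-GFP medium controls, at 144 ± 15, to 89.2 ± 0.7 in X-GFP high controls (-1.43 ± 0.16 against X-GFP negative cells, limma adjusted p = 1.22e-05). Socs1 rose from day 5 to X-GFP negative controls by 0.99 ± 0.29 (limma adjusted p = 0.0208), a call lost without the first X-GFP negative library (0.63, limma adjusted p = 0.207). Usp18 fell there by 0.96 ± 0.33 (limma adjusted p = 0.0378), a call lost without the second one (-0.65, limma adjusted p = 0.215) and by DESeq2 (-1.01, adjusted p = 0.182). From day 5 to X-GFP negative cells within the IFNγ arm, 4 of 9 members were called, each higher, with 47.2% of all genes called. These were Ifngr1 (0.41 ± 0.13, limma adjusted p = 0.0455), Ifngr2 (1.13 ± 0.21, 0.00743), Socs3 (0.49 ± 0.07, 0.00355) and Ptpn6 (0.67 ± 0.11, 0.00419), and the Ifngr1 call was lost without the second X-GFP negative IFNγ library (0.29, limma adjusted p = 0.279) and the Ptpn6 call with all 24 libraries in 1 fit (limma adjusted p = 0.233).

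**Figure D4:**
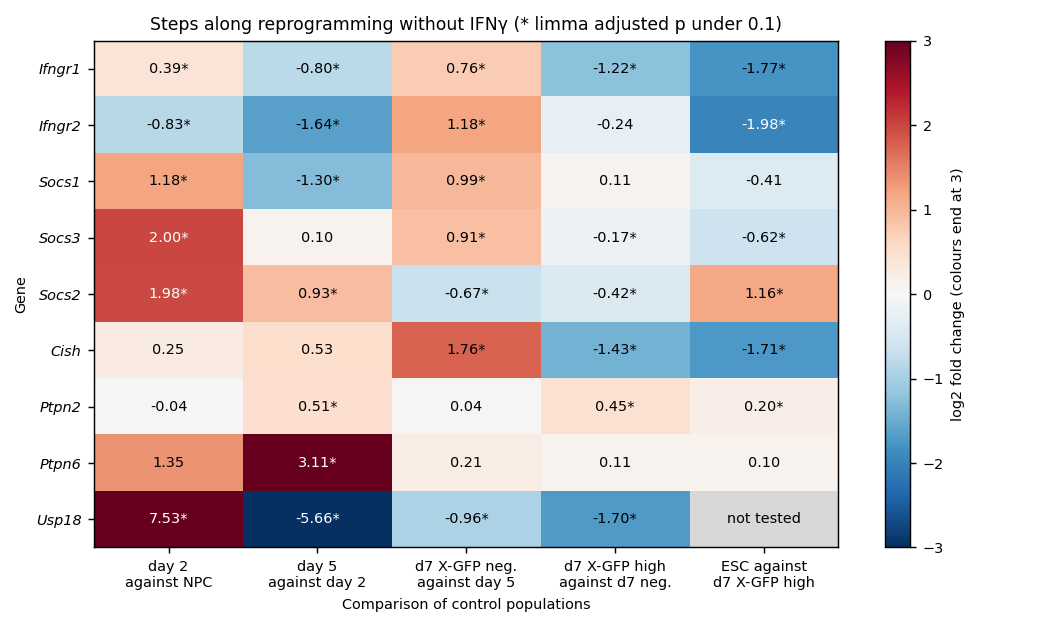
Log2 fold change of each gene over 5 consecutive steps between control populations, written in each cell and coloured from blue (lower) to red (higher) with colours ending at 3, and a star for limma adjusted p under 0.1. Usp18 changes by 7.53 and -5.66 over the first 2 steps and Ptpn6 by 3.11 at the second.

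The differences between IFNγ effects, quoted above with each gene, were called for 1 of 9 members between day 5 and day 2, with 0.676% of all genes called. They were called for 4 of 9 between X-GFP negative cells and day 5, with 40.3%, and for 1 of 9 between X-GFP high and X-GFP negative cells, with 22.8%. The last 2 counts are near or below these shares and are not a result about these genes. The members called from day 5 to X-GFP negative cells went both ways, Socs2 and Ptpn6 up and Socs3 and Cish down.

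The genes whose levels followed each member most closely over the 12 population means, among 11925 genes with a mean of at least 100 normalized counts, are given as a description, with populations of 1 cell line and 1 time course as points. For Socs1 these were Nlrc5, the activator of MHC class I genes (Pearson r = 0.95), and Psmb9 (r = 0.94), both of the IFNγ target list. Nlrc5 went from 152 ± 13 normalized counts to 10339 ± 641 with IFNγ at day 2. For Socs3 they were Efr3a (r = 0.97) and Bst2, which encodes the antiviral membrane protein tetherin (r = 0.96), and for Usp18 Mx2 (r = 0.99) and Man1a, a mannosidase gene (r = 0.96). For Ptpn6 they were Cblc (r = 0.99) and Tdgf1, the gene of the pluripotency-associated co-receptor Cripto (r = 0.99). Ptpn2 was closest to Fmr1nb and Rpl10l (r = 0.99 for both), Socs2 to Arpc1b and Xk (r = 0.98 and 0.96), and Cish to Jund, a subunit of the AP-1 transcription factor, and Rhoc, a small GTPase (r = 0.96 for both). For Ifngr1 they were Slc37a4, the glucose-6-phosphate transporter, and Pde4b, a phosphodiesterase (r = 0.99 for both), and for Ifngr2 5031425E22Rik and Shisal1 (r = 0.97 and 0.95). Of the 9 genes, Socs1 alone had both of its closest genes in the IFNγ target list.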

How the data were processed

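Per the study's methods, stranded rRNA-depleted RNA libraries were aligned by the authors to mm10 with strain variants masked, using STAR with the WASP filter, counted with HTSeq 0.6.1 and normalized with DESeq2; the annotation release and the strand setting were not given in the sources used here. The deposited values are read counts divided by a size factor for each library, a normalized signal that was used as it stands. Symbols were matched to the Ensembl identifiers through GENCODE vM21 (95.2% of identifiers). No column of the table belonged to another sample. The deposited table of allelic proportions held none of the 9 genes and was not used. Exons of Cish, Ptpn6 and Usp18 overlap annotated genes on the opposite strand, whose means were below 1 normalized count where they were in the table.

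Here, log2(normalized count + 1) of genes with a mean above 10 in the libraries compared was fitted with limma 3.58.1 (R 4.3.3; empirical Bayes with a trend), 2 libraries against 2, or 8 libraries for differences of effects, with Benjamini-Hochberg adjustment over all tested genes and a threshold of 0.1, as in the study's methods. The unit was not raw counts, so limma was the main test. Whole reads were recovered from the steps of the values in all 24 libraries (100% of values whole within 0.0001 of a read) and refitted with edgeR 4.0.16 and DESeq2 1.42.0 as alternatives. Their totals give the depth, and the floor of 3 reads covers counting error only. On simulated day 2 data with 200 changed of 15697 genes, limma called 87.5% of the changed genes, with 19.0% of calls false. This is above the share of 0.1 that the threshold sets. By edgeR these shares were 87.0% and 13.9%, and by DESeq2 83.5% and 13.5%. Other populations, and detection by size of change, were not tested in this way. Other alternatives were a pseudocount of 0.1, no filter, equal totals, all 24 libraries in 1 fit, a replicate block, and leaving out each library.

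The 9 genes, the gene lists and the alternatives were chosen with earlier results of these data known. The rule for names covered all 9 genes, the 2 genes closest to each by Pearson correlation of population means of log2(normalized count + 1), and up to 3 genes of each list by size of change; 25 of 26 listed target genes were matched. Promoter sequences are RefSeq's (GRCm38.p6), and those of Socs2, Ptpn2 and Usp18 were not used here. Replicates are those the labels number 1 and 2.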

Additional observations from a re-analysis of the deposited data

Results flagged for a closer look

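Differences between IFNγ effects that passed the test of the difference itself were marked for a closer look. Usp18 was lower with IFNγ at day 2 and at 50.9 and 71.2 against 32.8 and 37.3 normalized counts at day 5, a difference of effects of 1.92 (limma adjusted p = 0.0175). In this test 0.676% of all genes were called, and the Usp18 call was lost with all 24 libraries in 1 fit (limma adjusted p = 0.102). Between day 5 and the X-GFP negative cells of day 7, the effect rose by 0.59 for Socs2 (limma adjusted p = 0.0245) and by 0.46 for Ptpn6 (limma adjusted p = 0.0675), and changed by -0.43 for Socs3 (limma adjusted p = 0.00818) and by -1.49 for Cish (limma adjusted p = 0.0122). In that test 40.3% of all genes were called, and the number of members called is near this share. The Ptpn6 call was lost with all 24 libraries in 1 fit (limma adjusted p = 0.614). Between X-GFP negative and X-GFP high cells the IFNγ effect changed by -0.45 for Ptpn6 (limma adjusted p = 0.0351), with 22.8% of all genes called. This call too was lost with all 24 libraries in 1 fit (limma adjusted p = 0.695). The Usp18 call and both Ptpn6 calls were also lost without some single libraries, as given above. With 2 libraries in each group, no group was large enough to test for a library far from the others.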

How the results depend on the processing

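Of 132 member differences, 72 were called, over comparisons in which 0.676% to 85.6% of all genes were, so this count is not a result about these genes. None of the 72 changed sign under any alternative. Of 1558 refitted values, 64 had the opposite sign, none of them past the threshold in either fit. Members called lower at day 2 were 2 instead of 1, with Ifngr1 added, when values were rescaled to the same total, when all 24 libraries were fitted together and with the replicate block. Over all genes, 584 of 15697, 529 of 16247 and 2343 of 15697 were called lower in these fits, against 542 of 15697 in the main fit. Members called lower at day 5 were 1 instead of 0 (Ifngr1) with all 24 libraries and with the block. There 1078 of 16247 and 1569 of 15133 genes were called lower, against 81 of 15133 in the main fit. The 1 call between the day 5 and day 2 effects was 0 with all 24 libraries, and the 1 call between X-GFP high and X-GFP negative effects was 4 after rescaling and 2 with the block. Of 15764 genes in the latter test, 655 were called higher and 4065 lower after rescaling, and 2075 higher and 2782 lower with the block. These member counts are not a result about these genes. The Socs3 step from day 2 to day 5 was -0.023 after rescaling, against 0.10. Leaving out 1 library at a time, members higher in X-GFP high cells were 1 to 2, calls between day 5 and day 2 effects 0 to 1, and calls between X-GFP high and negative effects 0 to 2; Socs1 in X-GFP high cells ranged from -0.17 to 0.56, and the Socs3 step from -0.022 to 0.23. The cause of these changes was not tested.

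Replicate numbers are shared by the groups, but no label says that a number marks a common culture; deviations of libraries with the same number correlated at 0.41 at day 2, 0.36 at day 5, and 0.19, 0.11 and 0.024 in the X-GFP negative, medium and high cells, across genes. With the replicate block, genes called over the whole table went from 1332 to 4995 at day 2 and from 330 to 3379 at day 5, and among the members Ptpn6 at day 2 (0.66, limma adjusted p = 0.013), Usp18 at day 5 (0.77, limma adjusted p = 0.042), Socs3 in X-GFP negative cells (0.10, 0.0608) and the Socs1 differences of effects from day 5 to X-GFP negative cells (-0.89, 0.0519) and from X-GFP negative to X-GFP high cells (-0.95, 0.0263) were called, while the Socs1 and Cish calls between ESCs and NPCs were lost (0.132 and 0.112). Without the filter 693 genes were called at day 2 and 141 at day 5, and at day 5 2500 were called with all 24 libraries and 912 by DESeq2. Between the day 5 and day 2 effects, 107 genes were called, against 316 with all 24 libraries, 170 with the block and 260 by DESeq2. Rescaling to the same total shifted the median of all genes by 0.17 in X-GFP negative cells and moved the share of calls that were higher from 48.8% to 59.4% between day 5 and X-GFP negative cells within the IFNγ arm, from 44.2% to 63.0% for the X-GFP negative effect against day 5 and from 41.4% to 13.9% for the X-GFP high effect against X-GFP negative. Depth limits Usp18 in X-GFP high cells and ESCs, at 0 to 5 reads in a library.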
